A study of Macaca mulatta with 8 samples.

Results

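The suppressors of cytokine signaling (SOCS) were described in primary microglia of rhesus macaques through the 8 genes of the family, SOCS1 to SOCS7 and CISH. The members were taken by gene symbol, and 7 of the 8 were found among 35432 counted genes. SOCS4 was not found under its symbol and was not analysed here. Microglia, the resident macrophages of the brain, came from the subcortical white matter of 4 adult outbred donors, R07110, R12016, R02046 and R14143, and were cultured for 8 days with serum and M-CSF. On day 7, one culture of each donor received uLPS, an ultrapure lipopolysaccharide that engages TLR4, at 10 µg/mL. The other was first pre-incubated for 1 h with 5 µM MRS2578, an antagonist of the nucleotide receptor P2RY6, and then received the same dose of uLPS. RNA was taken 16 h after uLPS, which gave 8 libraries, 4 with uLPS and 4 with uLPS and MRS2578. All 8 libraries were exposed to uLPS, so the induction of these genes by uLPS itself was not measured here. The labels name no vehicle for the cultures with uLPS alone. The study's methods report controls with the solvent DMSO for every assay with MRS2578, but do not say whether these sequenced cultures received it.

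SOCS proteins form a negative feedback loop on cytokine signaling. Cytokine receptors activate Janus kinases (JAK), which phosphorylate STAT transcription factors, and STATs in turn switch on SOCS genes. Each SOCS protein binds phosphorylated targets through an SH2 domain and recruits a ubiquitin ligase through its SOCS box. SOCS1 and SOCS3 also inhibit the kinases directly, SOCS3 mainly at receptors of the IL-6 family and SOCS1 mainly in interferon signaling. CISH and SOCS2 are known as STAT5 target genes that respond to cytokines such as GM-CSF and IL-2. SOCS5, SOCS6 and SOCS7 are better known from the regulation of growth factor and insulin signaling.

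For donor R02046, the sample labels and the study's own table of CPM values (counts scaled to the size of the library) differ in the condition of the libraries. The 8 CPM columns of that table were each proportional to the counts of 1 library, with a coefficient of variation of the ratio of at most 1.42e-06. In 6 columns the donor and condition were those of the label, and in the 2 columns of R02046 the conditions were exchanged. Which assignment holds was not settled here, and the study's measurements of secreted cytokines, which include this donor, were not used. Levels and differences within donors are given with the deposited labels, and fitted log2 fold changes also with the R02046 libraries exchanged and without R02046. Exchanging them turns the sign of each R02046 difference. Total counts per library ran from 9231109 to 32790348, and 3 counts, which are the most that a gene with no read could hide, correspond to 0.0915 to 0.325 CPM (counting error only). The summed CPM of 9 microglia and macrophage markers was between 3210 and 4365 in every library, and none of them was at 0 throughout. Of 8 lymphocyte markers, CD3G and NKG7 were at 0 in all libraries, and the summed level ran from 5.84 to 51.1 CPM. The 5 fibroblast markers ran from 90.2 to 1191 CPM. Summed markers of oligodendrocytes ran from 223 to 407 CPM, and those of astrocytes from 88.7 to 205 CPM. Those of endothelial and mural cells ran from 180 to 332 CPM, and those of neurons from 0.64 to 8.7 CPM. In bulk RNA, fewer cells that express a gene and less RNA per cell cannot be told apart.

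SOCS3 was the most abundant member and SOCS1 the least. Levels of different genes were compared as CPM per kilobase of annotated exon (NCBI annotation of Mmul_10), and with uLPS alone SOCS3 was at 172 ± 62.1 CPM per kb (SD, n = 4 donors). Next came CISH at 11.7 ± 5.58, SOCS5 at 4.43 ± 0.514 and SOCS6 at 3.73 ± 0.395 CPM per kb. SOCS2 was at 1.47 ± 0.242, SOCS7 at 0.957 ± 0.316 and SOCS1 at 0.343 ± 0.234 CPM per kb. SOCS3 thus held between 85.1% and 91.2% of the summed CPM per kb of the 7 genes in each of the 8 libraries. With uLPS, the ranges over donors overlapped for SOCS5 and SOCS6 and for SOCS2 and SOCS7, and not for the other neighbours in this order. The annotated exons of SOCS3 come to 1124 bases, the shortest of the 7, and those of SOCS7 to 8360 bases, the longest, so the order depends on these gene models. The exons that were counted are those of another annotation, whose release is not given in the sources used here.

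**Figure D1:**
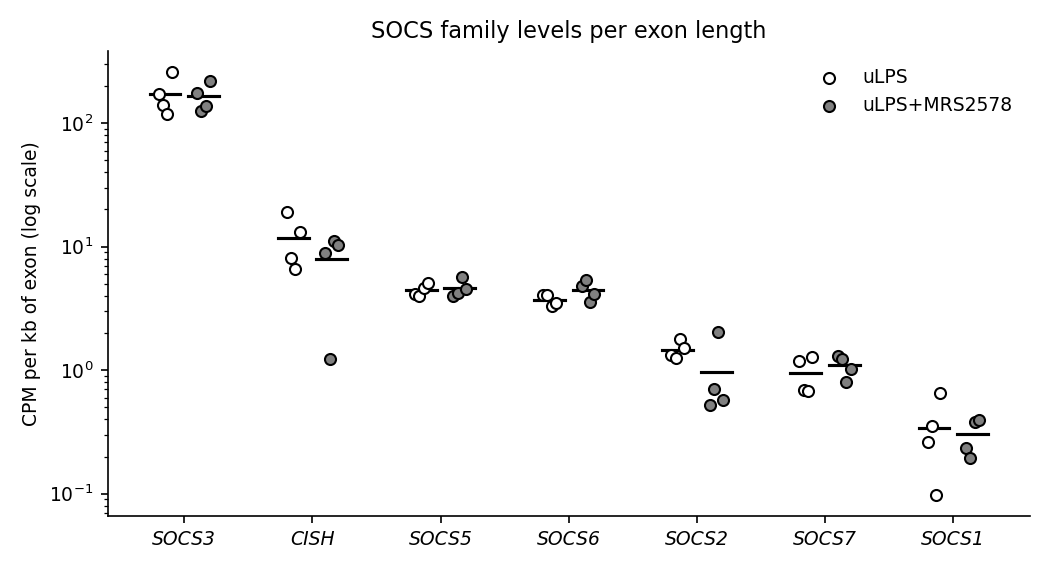
Levels of the 7 SOCS family genes as TMM-scaled CPM per kilobase of annotated exon on a log axis, with 1 point per donor for uLPS (white) and for uLPS with MRS2578 (grey) and a bar at the mean of each condition. SOCS3 lies at 118 CPM per kb or more in every library and SOCS1 at 0.657 or less.

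CISH encodes the founding member of the family and was the member with the widest range over libraries, 15.4-fold between the lowest and the highest. It lies on chromosome 2, 106735078 to 106740055 of Mmul_10, on the minus strand, and a lncRNA gene is annotated on the opposite strand over it. The strand setting of the counting is not given in the sources used here, so reads of a gene and of an opposite gene may not be separated. The 250 bases before its annotated start (chr2:106740056-106740305, minus strand, Mmul_10) held the STAT motif TTCNNNGAA at 2 places, from -228 to -220 and from -211 to -203. The motif reads the same on both strands, and no other motif was searched. Of 20787 promoters of protein-coding genes cut at the same length, 5.98% held it at any number of places. The share that held it at 2 places was not counted. A match describes letters and does not show that a factor binds. The promoter is printed 5′ to 3′ over the whole window, with the motif in capitals, because STAT factors are known inducers of CISH. STATs also switch on other SOCS genes, whose windows are not shown here. The motif is therefore not to be read as particular to CISH.

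CISH: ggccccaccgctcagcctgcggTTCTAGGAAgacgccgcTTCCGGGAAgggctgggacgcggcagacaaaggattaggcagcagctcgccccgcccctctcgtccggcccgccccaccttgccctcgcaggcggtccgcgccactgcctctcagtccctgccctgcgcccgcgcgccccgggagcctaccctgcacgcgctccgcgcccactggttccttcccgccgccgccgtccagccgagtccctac

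With uLPS, CISH reached 55.4 CPM in R07110, 38.6 in R14143, 23.6 in R12016 and 19.3 in R02046. With uLPS and MRS2578, it was at 26.2, 30.3, 3.61 and 32.8 CPM in the same order of donors. CISH was thus lower with the antagonist in R07110, R12016 and R14143, and in R02046 it was higher as labelled, and the conditions overlapped between donors. The level with MRS2578 was 0.473 of that with uLPS in R07110, 0.153 in R12016 and 0.785 in R14143, so the size of the difference varied widely. The R12016 library with MRS2578 had 57 CISH counts, against 370 in its uLPS partner. The log2 fold change over the 4 donors, from edgeR's quasi-likelihood test with donor as a block, was -0.78 (adjusted p = 0.878, SE 0.49). It did not pass the threshold of 0.05 on the p-value after Benjamini-Hochberg adjustment over all genes tested. With R02046 exchanged, it was -1.11 (adjusted p = 0.144, SE 0.31), and without R02046 it was -1.25 (adjusted p = 0.292, SE 0.40). R12016 carried much of it with the deposited labels, where the log2 fold change was -0.26 without this donor. The log2 fold change without R12016 was -0.73 with R02046 exchanged, against -1.11 with all 4 donors. With R02046 exchanged and R14143 left out, it was -1.40 (adjusted p = 0.0333 in the same edgeR fit), the one setting of this kind in which CISH passed the test. The summed lymphocyte markers were at 37.6 and 37.2 CPM in the R07110 libraries without and with MRS2578, at 18.1 and 11.1 CPM in those of R12016, at 50.1 and 51.1 CPM in those of R02046 and at 5.84 and 6.21 CPM in those of R14143. The part of lymphocytes in the CISH difference was not tested.

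SOCS2, which is best known for limiting growth hormone signaling, lies on chromosome 11, 93367615 to 93374511, with no overlapping gene. It was at 5.48, 5.23, 7.47 and 6.30 CPM with uLPS in R07110, R12016, R02046 and R14143, and at 2.18, 2.91, 8.48 and 2.40 CPM with uLPS and MRS2578. In 3 donors the level with the antagonist was between 0.382 and 0.556 of that with uLPS alone, and these 3 libraries lay below every uLPS library. Only the R02046 library labelled MRS2578 lay above them all. These levels rest on 43 to 180 counts per library. The log2 fold change was -0.83 (adjusted p = 0.878, SE 0.30), with an unadjusted p of 0.0263 that ranked 290 among 12131 genes in edgeR's quasi-likelihood test. It was -0.93 (adjusted p = 0.126, SE 0.24) with R02046 exchanged and -1.20 (adjusted p = 0.160, SE 0.23) without R02046. Unlike that of CISH, the SOCS2 difference was of similar size in the 3 donors, at -1.29, -0.82 and -1.35 on the log2 scale in R07110, R12016 and R14143.

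SOCS1, a potent inhibitor of interferon signaling, lies on chromosome 20, 11218216 to 11222015. It was near the detection limit, with 3 to 42 counts per library. Its level was 0.853, 1.15, 0.320 and 2.13 CPM with uLPS alone and 0.768, 0.632, 1.24 and 1.29 CPM with the antagonist added, in the order R07110, R12016, R02046 and R14143. It was lower with MRS2578 in the same 3 donors as CISH and SOCS2, by 0.13, 0.76 and 0.69 on the log2 scale. In R02046, 3 counts with uLPS stood against 17 with MRS2578 as labelled, so the lower value is at the counting limit. The log2 fold change was -0.22 (adjusted p = 0.957, SE 0.45), -0.71 (adjusted p = 0.383, SE 0.36) with R02046 exchanged and -0.56 (adjusted p = 0.577, SE 0.37) without R02046. With the deposited labels it was 0.07 when R14143 was left out.

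SOCS3, the main brake on IL-6 signaling, lies on chromosome 16, 74717689 to 74719374, and a lncRNA gene is annotated opposite to it. It was at 192, 159, 133 and 292 CPM with uLPS alone and at 198, 141, 155 and 246 CPM with the antagonist added in R07110, R12016, R02046 and R14143. The donors differed more than the conditions, as the highest library was 2.20-fold above the lowest and no donor moved by more than 0.25 on the log2 scale. The log2 fold change was -0.04 (adjusted p = 0.972, SE 0.11), -0.15 (adjusted p = 0.438, SE 0.087) with R02046 exchanged and -0.13 (adjusted p = 0.660, SE 0.10) without R02046. The summed fibroblast markers were at 150 and 232 CPM in the R07110 libraries without and with MRS2578. They were at 90.2 and 204 CPM in those of R12016, and at 369 and 530 CPM in those of R02046 as labelled. In R14143, which had the highest SOCS3 levels, they were at 1191 and 430 CPM. The part of these cells in the SOCS3 levels was not tested. IL6, whose receptor SOCS3 restrains, was at 305 ± 185 CPM without and 102 ± 27.3 CPM with the antagonist (SD, n = 4 donors). IL6 had a fitted log2 fold change of -1.31 (adjusted p = 0.878, SE 0.40), which was -1.47 (adjusted p = 0.0599, SE 0.27) with R02046 exchanged and -1.82 (adjusted p = 0.120, SE 0.18) without R02046.

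**Figure D2:**
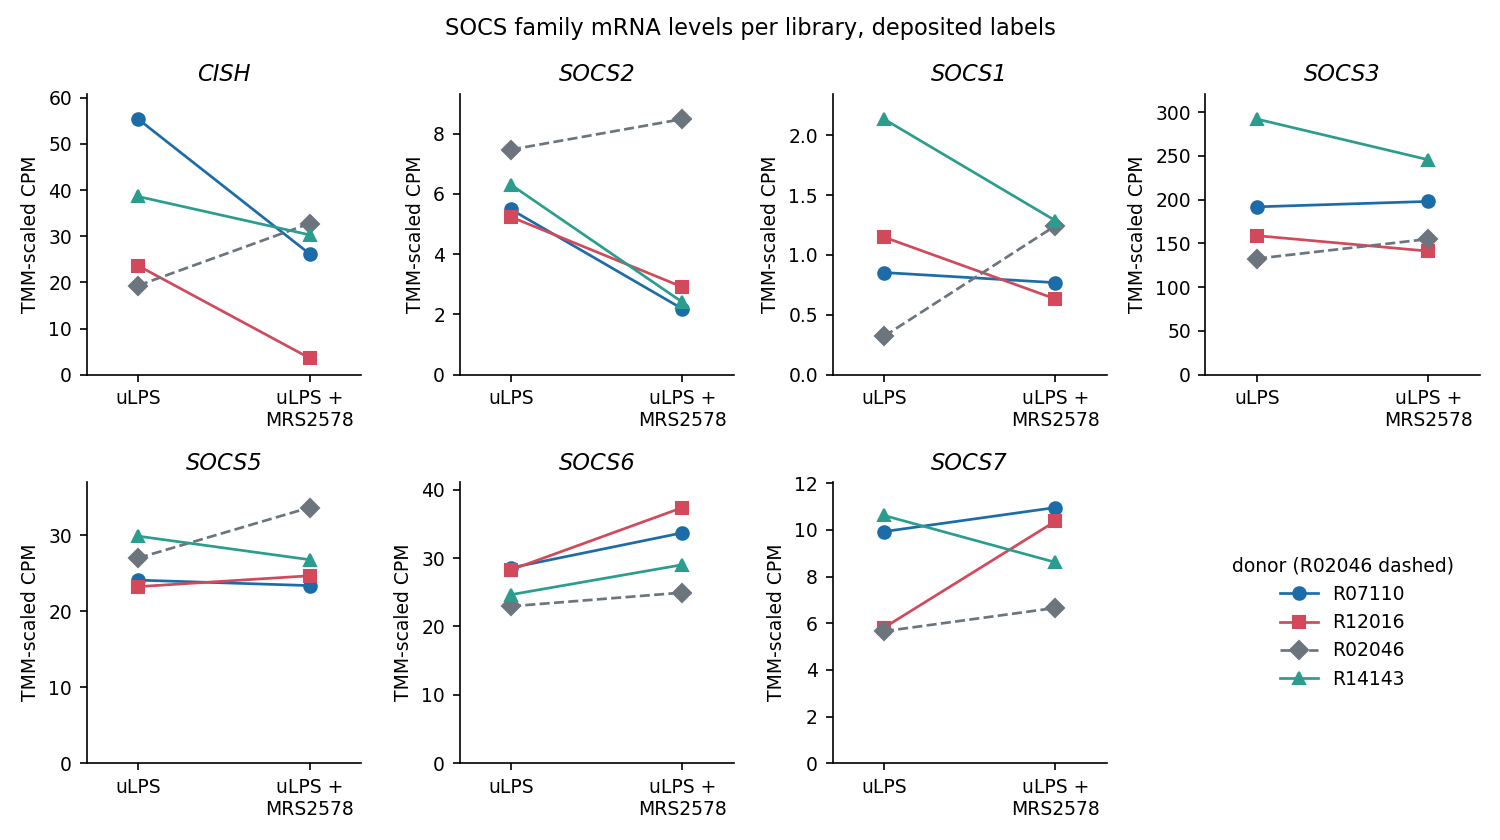
TMM-scaled CPM of each SOCS family gene in the 8 libraries, with a line from uLPS to uLPS with MRS2578 for each donor and a dashed line for R02046, as labelled. CISH, SOCS2 and SOCS1 fall in R07110, R12016 and R14143 and go the other way in R02046, whereas SOCS6 goes up in all 4 donors.

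SOCS6, which acts on receptor tyrosine kinases such as KIT, lies on chromosome 18, 9617347 to 9657849, with a lncRNA gene on the opposite strand. It was the one member that was higher with MRS2578 in all 4 donors as labelled. Its level was 28.6, 28.3, 22.9 and 24.6 CPM with uLPS alone and 33.7, 37.4, 24.9 and 29.0 CPM with the antagonist added in R07110, R12016, R02046 and R14143. The differences were small, between 0.12 and 0.40 on the log2 scale. In the fit over all donors the log2 fold change was 0.25 (adjusted p = 0.878, SE 0.11), 0.20 (adjusted p = 0.444, SE 0.12) with R02046 exchanged and 0.29 (adjusted p = 0.344, SE 0.11) without R02046. Over the 8 libraries, log2 CPM of SOCS6 and SOCS2 had a Pearson correlation of -0.82, the most extreme among all pairs of tested members. This is a description over libraries that share donors.

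SOCS5 and SOCS7 moved little or in both directions. SOCS5, a regulator of EGFR signaling on chromosome 13 (62035559 to 62099875), was the steadiest member, at 23.2 to 33.6 CPM with a coefficient of variation of 13.7% over the 8 libraries. Its differences ran from -0.16 in R14143 to 0.32 in R02046 as labelled, and its log2 fold change was 0.05 (adjusted p = 0.965, SE 0.12), -0.11 (adjusted p = 0.690, SE 0.11) with R02046 exchanged and -0.04 (adjusted p = 0.914, SE 0.12) without R02046. SOCS7, which binds adaptors of insulin signaling and lies on chromosome 16 (49399627 to 49457962), was at 5.66 to 10.96 CPM. It was higher with MRS2578 by 0.83 in R12016 and lower by 0.30 in R14143 on the log2 scale. Its log2 fold change was 0.21 (adjusted p = 0.906, SE 0.21), 0.12 (adjusted p = 0.832, SE 0.21) with R02046 exchanged and 0.20 (adjusted p = 0.775, SE 0.24) without R02046. With the deposited labels it was 0.01 when R12016 was left out.

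**Figure D3:**
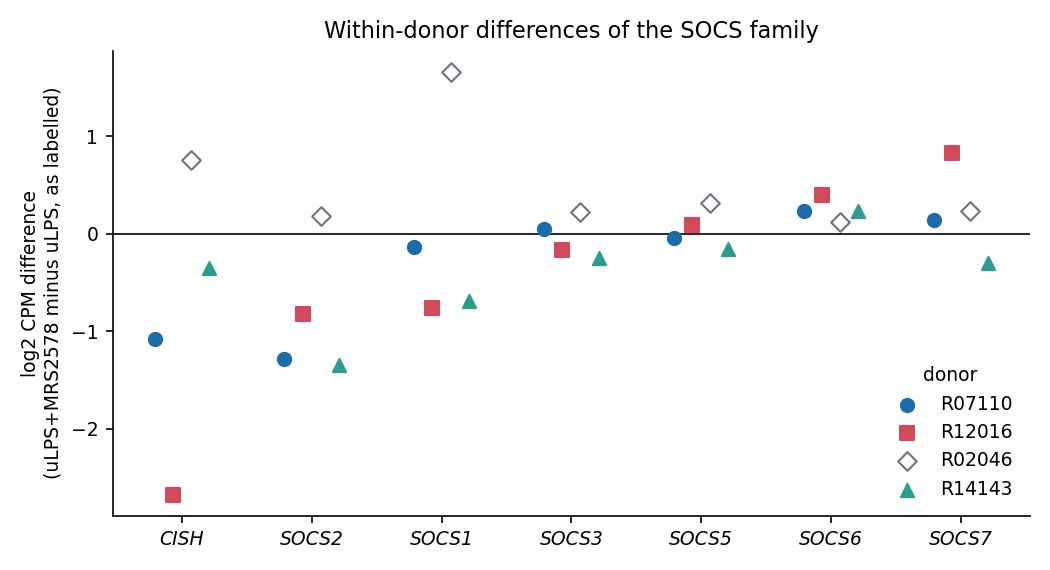
Difference in log2 CPM (prior count 2) between uLPS with MRS2578 and uLPS for each SOCS family gene and donor, as labelled, with R02046 as open diamonds. The points of SOCS2 in R07110, R12016 and R14143 lie between -1.35 and -0.82, and those of CISH between -2.68 and -0.35.

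None of the 7 members passed an adjusted p of 0.05 under any of the 3 assignments. Of all genes tested, 0 of 12131 (0%) did so with the deposited labels, 75 of 12131 (0.618%) with R02046 exchanged and 0 of 12295 (0%) without R02046. At an unadjusted p under 0.05, 1 member (SOCS2) was lowered with the deposited labels, where 2.44% of all genes were lowered and 2.7% raised. With R02046 exchanged, 2 members (CISH and SOCS2) were lowered at that level, against 9.59% of all genes, and the same 2 were lowered without R02046, against 7.86%, while SOCS6 was raised, against 5.73% of all genes. CISH, SOCS1 and SOCS2 were lower with MRS2578 in all of R07110, R12016 and R14143, as were 19.8% of all genes tested. SOCS6 was higher in all 3, as were 17% of all genes. The median log2 fold change of the 7 members was -0.04 with the deposited labels, -0.15 with R02046 exchanged and -0.13 without R02046, beside -0.0097, 0.0012 and -0.0035 over all genes. The 75 calls depended on the donors, with 0 left without R07110 or without R02046, 5 without R12016 and 918 without R14143.

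**Figure D4:**
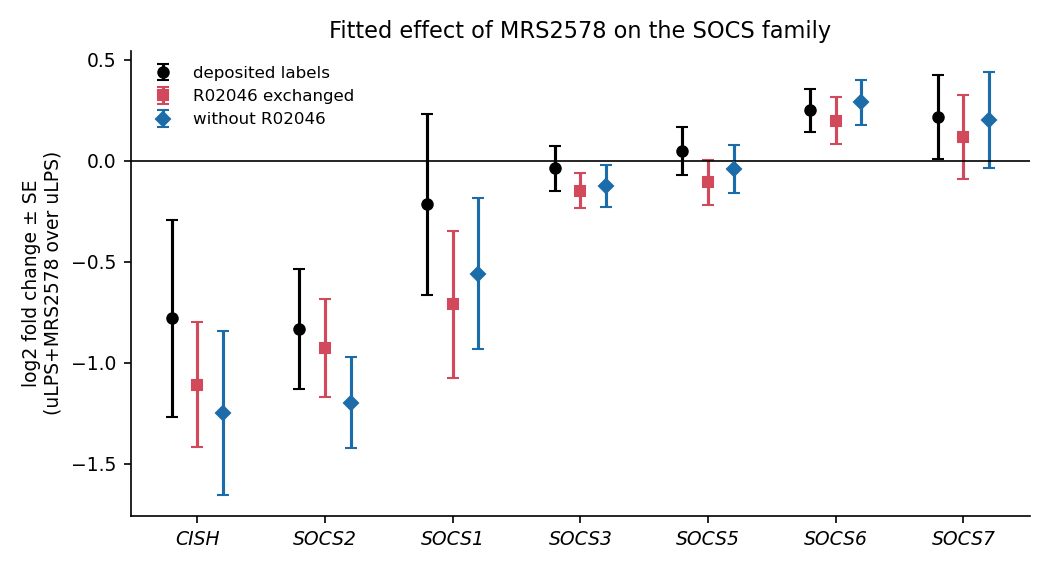
Log2 fold change of each SOCS family gene between uLPS with MRS2578 and uLPS from edgeR's quasi-likelihood fit with donor as a block, with bars of 1 SE, for the deposited labels (black), the R02046 libraries exchanged (red) and without R02046 (blue). CISH and SOCS2 lie between -1.25 and -0.78 in all 3 fits, and SOCS3 and SOCS5 lie within 0.15 of 0.

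Upstream of the SOCS genes stand the cytokines and receptors that signal through JAK and STAT. Of 36 such ligands, 31 were found by symbol and 11 passed the filter on low counts. With the deposited labels, 9 of these 11 were lower and 2 higher with MRS2578. Of them, 0 were past an adjusted p of 0.05, and the median log2 fold change was -0.18. With R02046 exchanged, the counts were also 9 and 2 and the median was -0.42. Without R02046, where 10 were tested, 9 were lower and the median was -0.33. Beside these counts and those of the lists below, 6322 of 12131 genes tested were lower with the deposited labels. The same held for 6047 of 12131 with R02046 exchanged and for 6213 of 12295 without R02046. CSF2, which encodes the STAT5 activator GM-CSF, was at 43.7 ± 36.9 CPM without and 20.7 ± 22.8 CPM with the antagonist (SD, n = 4 donors) and was the one ligand of those named here that was lower in all 4 donors as labelled. Its differences were -3.49 in R12016, -1.09 in R07110, -0.85 in R14143 and -0.23 in R02046. R12016 also had the widest fall of IL6, CSF3 and IL12B. For CSF2 the log2 fold change was -1.32 (adjusted p = 0.878, SE 0.47), against -1.19 (adjusted p = 0.247) with R02046 exchanged and -1.63 (adjusted p = 0.259) without R02046. CSF3, which encodes G-CSF, had -0.82 (adjusted p = 0.878, SE 0.33), -0.98 (adjusted p = 0.0968) and -1.17 (adjusted p = 0.160) in the same order of assignments. IL12B, a subunit of IL-12 and IL-23, went the other way in R02046 as labelled, at 1.08, than in R07110, R12016 and R14143, at -2.54, -4.02 and -0.76. Its log2 fold change was -1.57 (adjusted p = 0.878, SE 0.83) with the deposited labels, -2.05 (adjusted p = 0.109) with R02046 exchanged and -2.44 (adjusted p = 0.211) without R02046.

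Of 39 receptors, 22 were tested, with 6 higher, 16 lower and a median log2 fold change of -0.09. With R02046 exchanged, 19 were lower and 3 higher, the median was -0.28, and IL2RA alone had an adjusted p under 0.05. Without R02046, 23 were tested, 19 were lower and 4 higher, and the median was -0.22. IL2RA, the alpha chain of the IL-2 receptor, had a log2 fold change of -1.01 (adjusted p = 0.878, SE 0.54) as labelled, -1.57 (adjusted p = 0.0271, SE 0.17) with R02046 exchanged and -1.67 (adjusted p = 0.124, SE 0.21) without R02046. On the log2 scale IL2RA differed by -1.72, -2.17 and -1.10 in R07110, R12016 and R14143, and by 1.28 in R02046 as labelled. IL6R, the ligand-binding chain of the IL-6 receptor, was at 20.0 ± 6.72 CPM without and 30.9 ± 7.73 CPM with the antagonist (SD, n = 4 donors). Its differences were 0.60, 0.99, 0.05 and 1.02 on the log2 scale in R07110, R12016, R02046 and R14143. IL6R had a log2 fold change of 0.67 (adjusted p = 0.878, SE 0.18), 0.64 (adjusted p = 0.147) with R02046 exchanged and 0.86 (adjusted p = 0.134) without R02046. IL15RA had -0.51 (adjusted p = 0.878), -0.67 (adjusted p = 0.0526) and -0.78 (adjusted p = 0.124) in that order, and IL20RA had -0.62 (adjusted p = 0.878), -0.53 (adjusted p = 0.288) and -0.62 (adjusted p = 0.304).

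All 11 Janus kinase and STAT genes were tested, of which 5 were higher and 6 lower with the deposited labels. With R02046 exchanged, 10 were lower and the median log2 fold change was -0.16, and without R02046, 9 were lower and the median was -0.11. None passed the test under any of the 3 assignments. STAT4, a mediator of IL-12 signaling, had the widest difference of the 11, at a low level of 1.796 ± 1.946 CPM without and 0.624 ± 0.473 CPM with the antagonist (SD, n = 4 donors). STAT4 differed by -2.08, -1.97 and -1.16 on the log2 scale in R07110, R12016 and R14143, and by 2.35 in R02046 as labelled. Its log2 fold change was -1.52 (adjusted p = 0.878, SE 0.60), -1.88 (adjusted p = 0.0840) with R02046 exchanged and -1.83 (adjusted p = 0.191) without R02046. STAT2, which mediates type I interferon signaling, was at 193 ± 92.0 and 141 ± 34.0 CPM in the 2 conditions, and had -0.37 (adjusted p = 0.878), -0.46 (adjusted p = 0.134) and -0.55 (adjusted p = 0.211) under the 3 assignments. For the kinase TYK2 the values were -0.24 (adjusted p = 0.878), -0.29 (adjusted p = 0.224) and -0.35 (adjusted p = 0.292). JAK1 turned sign, with 0.13 as labelled, -0.11 with R02046 exchanged and 0.013 without R02046, where its adjusted p was 0.906, 0.680 and 0.974.

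The genes that work beside or downstream of SOCS proteins include no call, as no gene of the 4 lists that follow had an adjusted p under 0.05 under any of the 3 assignments. The 8 tested SOCS box ubiquitin ligase partners had log2 fold changes between -0.20 and 0.27 with the deposited labels (3 higher, 5 lower). Their median was -0.02, against 0.0024 with R02046 exchanged and 0.011 without R02046. UBE2F, a conjugating enzyme, had 0.27 as labelled, 0.20 with R02046 exchanged and 0.31 without R02046. RBX1, a RING protein, had -0.20, -0.039 and -0.16, elongin C (ELOC) had -0.12, -0.064 and -0.12, and RNF7 lay within 0.03 of 0 in all 3.

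Of 28 other genes with a SOCS box, 12 were tested, of which 10 were higher and 2 lower as labelled, 7 and 5 with R02046 exchanged, and 8 and 4 without R02046. The median was 0.14, 0.08 and 0.10 in that order, and -0.01 when R12016 was left out with the deposited labels. ASB6 had 0.17, 0.27 and 0.29, and RAB40C had 0.13, 0.26 and 0.25. WSB1 had -0.13, -0.0032 and -0.086, and SPSB2 had -0.14, -0.09 and -0.15.

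Among the 11 tested members of 12 other negative regulators of JAK and STAT signaling, the direction depended on R02046. With the deposited labels 6 were higher and 5 lower, with a median of 0.03. With R02046 exchanged, 2 were higher and 9 lower, with a median of -0.11, and without R02046 these were 4 and 7, with a median of -0.08. PTPN2, a phosphatase that acts on Janus kinases, was at 67.2 ± 13.0 CPM without and 51.5 ± 2.46 CPM with the antagonist (SD, n = 4 donors). It was lower in R07110, R12016 and R14143, and higher by 0.05 on the log2 scale in R02046. PTPN2 had a log2 fold change of -0.36 (adjusted p = 0.878, SE 0.14), -0.39 (adjusted p = 0.172) with R02046 exchanged and -0.50 (adjusted p = 0.199) without R02046. CBL, a ubiquitin ligase, had 0.32, 0.015 and 0.22 in that order. PIAS2 had 0.14, -0.087 and 0.026, and PTPN11 had 0.10, -0.042 and 0.039.

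Of 9 SOCS protein targets outside this pathway, 5 were tested, of which 4 were higher and 1 lower under each assignment. The median was 0.29 as labelled, 0.13 with R02046 exchanged, 0.17 without R02046 and 0.08 without R12016. IRS2, an insulin signaling adaptor that SOCS proteins can degrade, was at 2.56 ± 0.308 and 7.70 ± 5.86 CPM in the 2 conditions (SD, n = 4 donors), and its differences ran from -0.39 in R14143 to 2.66 in R12016. IRS2 had a log2 fold change of 1.32 (adjusted p = 0.878, SE 0.49), 1.22 (adjusted p = 0.282) with R02046 exchanged and 1.57 (adjusted p = 0.305) without R02046. PLCG1 had 0.29, 0.24 and 0.34, PTK2 had 0.16, 0.094 and 0.17, and TIRAP had -0.06, 0.13 and 0.047.

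**Figure D5:**
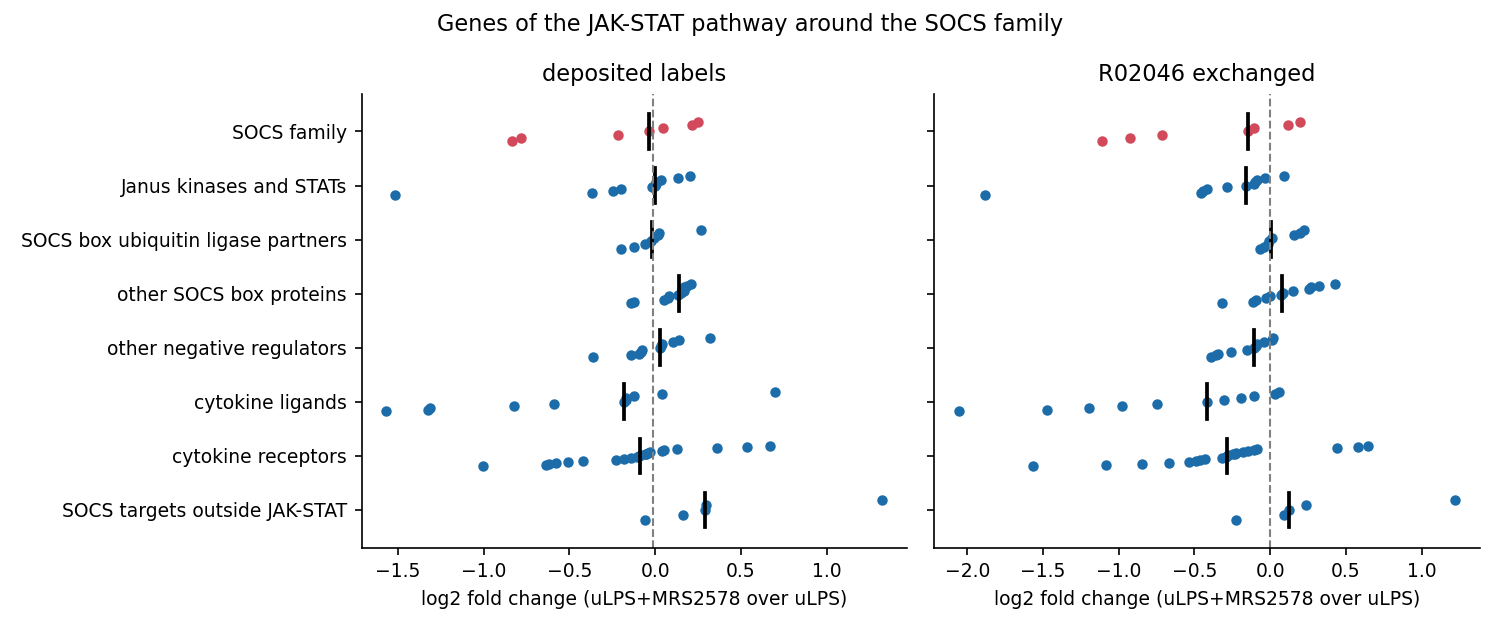
Log2 fold changes between uLPS with MRS2578 and uLPS of all tested genes of the SOCS family (red) and of 7 lists around it (blue), with the deposited labels (left) and the R02046 libraries exchanged (right). Black bars are list medians and the dashed line is the median of all genes tested, and the median of the cytokine ligands is -0.18 on the left and -0.42 on the right.

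Across the 8 libraries, 10927 tested genes with a symbol were searched. The 3 whose log2 CPM was most like that of CISH, SOCS3, SOCS2 or SOCS1 are named. For CISH these were EPHB6, CCNF and POLG, with Pearson correlations of 0.98, 0.98 and 0.97. For SOCS3 they were ARRB2, ITGA5 and PUS10, at 0.99, 0.98 and 0.96. For SOCS2 they were GNAI3, LYRM2 and CFL1, at 0.94 each, and for SOCS1 LRRK2, PAK2 and ITGA11, at 0.96, 0.95 and 0.94. No other SOCS gene was among them. Among the members themselves, SOCS1 and SOCS3 were at 0.77 and CISH and SOCS2 at 0.34. The libraries are in pairs from 4 donors, so these values describe differences between donors as well as between conditions. The named genes are the highest of 10927 over 8 libraries, so their high correlations come in part from this choice. Those of SOCS1 rest on 3 to 42 SOCS1 counts per library.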

How the data were processed

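RNA-seq libraries of 8 microglia cultures were used, 1 per donor and condition, grouped by their labels. The authors deposited raw counts per gene, as whole numbers, on Mmul_10. The submitters' processing notes name Trimmomatic 0.30, TopHat2 2.0.14, SAMtools 1.3 and HTSeq 0.6.1p1, whereas the study's methods name fastp 0.20, STAR 2.5.4, SAMtools 1.10 and HTSeq 0.11.0. The annotation release and strand setting are not given in the sources used here. The study's separate table of CPM values was used only to check the labels.

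From these counts, genes were filtered with filterByExpr (minimum count 10), scaled by TMM and fitted over all genes with edgeR 4.0.16 (R 4.3.3) by its quasi-likelihood test, with a block for donor and p-values adjusted by Benjamini-Hochberg. Differences within donors used log2 CPM with a prior count of 2. Libraries of the same donor deviated together from the condition means (correlations 0.602, 0.552, 0.458 and 0.562 for R07110, R12016, R02046 and R14143), and the labels name the donor, so the block was kept. The least different pair of libraries had a chi-square per degree of freedom of 15.8, and none was counted as a duplicate. The scripts were tested on simulated data.

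All 7 members are named. From each surrounding list the 4 tested genes with the smallest unadjusted p with the deposited labels are named, and for CISH, SOCS1, SOCS2 and SOCS3 the 3 genes most alike by Pearson correlation. The members and lists were chosen with earlier results of these data known. Alternatives were DESeq2 1.42.0, other scaling, filters and tests, no block, and leaving out each donor. Genes without a symbol held 5.966% to 7.662% of the counts and were kept by their identifiers. Columns of the authors' own comparisons were not used.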

Additional observations from a re-analysis of the deposited data

Results flagged for a closer look

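Groups of 4 values were examined for a single value far from the others, and 1 of 21 groups was picked out. Each group held the CPM of a member in the 4 libraries of a condition, or its 4 within-donor log2 differences. In the cultures with uLPS and MRS2578, SOCS2 was at 8.48 CPM in the library labelled R02046, while the other 3 lay between 2.18 and 2.91 CPM. The gap to the nearest library took 0.885 of the whole range, above Dixon's critical value for groups of 4. At that level, chance picks out about 1 in 20 groups. The library is 1 of the 2 whose condition differs between the labels and the study's table. The other of these, the R02046 library labelled uLPS, was at 7.47 CPM, so SOCS2 was high in both libraries of this donor.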

How the results depend on the processing

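With the deposited labels, 0 genes passed an adjusted p of 0.05 in edgeR's quasi-likelihood test (624 at an unadjusted p under 0.05), 1 in DESeq2's Wald test, 5 in edgeR's likelihood ratio test and 75 with R02046 exchanged. With R02046 exchanged, 583 passed in the Wald test, 616 in the likelihood ratio test and 39 with edgeR's earlier quasi-likelihood estimation, chosen after seeing the data. Without the donor block 0 passed under either assignment, and 0 to 918 did so when 1 donor was left out. With R02046 exchanged, all 4 donors and the block kept, SOCS2 had -0.94 in the Wald test (adjusted p = 0.0485) and -0.93 in the likelihood ratio test (adjusted p = 0.0241), and CISH -1.18 in the latter (adjusted p = 0.0171). The cause was not tested. Leaving out 1 donor gave log2 fold changes of -0.56 to 0.069 for SOCS1, -0.13 to 0.030 for SOCS3 and -0.041 to 0.11 for SOCS5 with the deposited labels, and -0.10 to 0.27 for SOCS7 and -1.40 to -0.73 for CISH with R02046 exchanged. SOCS5 had -0.11 with R02046 exchanged. SOCS1 had too few counts for a value when at least 10 counts were required in every library. The other settings left 129 log2 fold changes on the same side, and all 28 mean CPM values moved by less than 1 SD. Depth limits SOCS1, with 3 to 42 counts per library.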
